A study of Rattus norvegicus with 6 samples.

Results

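The splicing factor genes of the rat myocardium were taken from a table of expression values by their symbols. Genes named Srsf followed by a number (SR proteins), genes beginning with Hnrnp (heterogeneous nuclear ribonucleoproteins, hnRNPs) and genes named Sf3a or Sf3b followed by a number (subunits of splicing factor 3) were kept when their mean over the 6 samples was at least 0.5 FPKM (fragments counted in a gene, divided by its length in kilobases and by the library total). The names matched 39 rows, and 36 genes passed the minimum, of 10942 genes that passed it in all. They were 9 of 12 SR genes, 18 of 18 hnRNP genes and 9 of 9 SF3 genes. Members were thus selected on their mean FPKM over the 6 samples, which is given only as a description. The member nearest to the minimum from above was Hnrnph3, with a mean of 0.695 FPKM, and the nearest below it was Srsf10, with 0.221 FPKM. Srsf12 had a mean of 0.151 FPKM, and Srsf8 was listed at 0 in every sample.

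Myocardial tissue of male wild-type rats (genotype WT) was compared between 3 sham samples and 3 samples labelled I/R, called MI/RI here. In MI/RI, the left anterior descending coronary artery was tied for 30 min and then released for 6 h before the heart was taken. The labels write the same times for sham, which is described only as a sham operation. The groups were thus taken to differ in the coronary occlusion, and which other steps of the surgery they share is not stated. The sources used here give no strain or age for these rats and do not say which piece of the heart was used, so that each sample is a mixture of the cells of the tissue taken. The labels do not say that each sample came from a separate rat, and p-values then measure only the spread between these samples.

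Introns are removed from pre-mRNA by the spliceosome, which is assembled anew on each intron. SR proteins bind exons through RNA recognition motifs, and their tails, rich in arginine and serine, recruit the spliceosome, so that they usually favour inclusion of the bound exon. hnRNPs coat the nascent RNA and often act in the opposite way, by silencing exons or covering splice sites, and several also control mRNA stability and transport. SF3A and SF3B are protein complexes of the U2 particle that hold it on the branch point near the end of the intron. In the heart, splicing factors of these families shape the isoforms of calcium handling and contractile genes. Many SR and hnRNP genes also control themselves by including an exon that sends the transcript to decay, and a value per gene does not separate such transcripts from coding ones.

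The stretches of 150 bases before the start of 6 members are shown because these genes carry the main results: Hnrnpab, Sf3a2, Srsf11 and Srsf7 for their differences between the groups, and Hnrnpa1 and Srsf1 as a textbook pair with opposite effects on splice site choice. The sequences are from RefSeq on build GRCr8, 5′ to 3′ on the strand of the gene, and end at the base before the annotated start. Capitals mark matches on either strand. The E-box was searched as CACGTG and the ETS motif as CCGGAAG. The SP1 box was searched as GGGCGG, the YY1 motif as AANATGGCG, the TATA box as TATAAA, and the CCAAT box by the letters of its name.
Hnrnpab (chr10:36363899-36364048, minus strand): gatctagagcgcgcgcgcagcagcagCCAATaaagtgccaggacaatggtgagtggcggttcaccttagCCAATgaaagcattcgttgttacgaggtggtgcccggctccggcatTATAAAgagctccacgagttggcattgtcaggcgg
Hnrnpa1 (chr7:136253968-136254117, plus strand): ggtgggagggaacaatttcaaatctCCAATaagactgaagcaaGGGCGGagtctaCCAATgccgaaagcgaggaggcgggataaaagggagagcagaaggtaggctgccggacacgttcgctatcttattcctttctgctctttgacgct
Sf3a2 (chr7:9566206-9566355, minus strand): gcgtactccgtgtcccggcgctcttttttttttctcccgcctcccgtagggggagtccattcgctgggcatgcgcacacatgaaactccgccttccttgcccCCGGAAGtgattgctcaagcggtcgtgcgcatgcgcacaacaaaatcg
Srsf11 (chr2:249760259-249760408, minus strand): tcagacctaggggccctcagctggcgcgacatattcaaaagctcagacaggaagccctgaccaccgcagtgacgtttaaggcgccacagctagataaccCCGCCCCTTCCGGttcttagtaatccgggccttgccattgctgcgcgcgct
Srsf7 (chr6:20563902-20564051, plus strand): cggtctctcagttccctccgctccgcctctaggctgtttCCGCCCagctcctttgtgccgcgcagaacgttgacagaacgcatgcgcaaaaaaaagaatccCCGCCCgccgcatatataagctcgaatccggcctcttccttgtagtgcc
Srsf1 (chr10:73336348-73336497, plus strand): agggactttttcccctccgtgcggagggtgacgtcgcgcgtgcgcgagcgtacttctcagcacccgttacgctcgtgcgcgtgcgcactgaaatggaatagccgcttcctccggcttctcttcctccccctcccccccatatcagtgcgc
Hnrnpab showed CCAAT boxes and a TATA box in this stretch, Hnrnpa1 showed CCAAT boxes and an SP1 box, Sf3a2 showed an ETS motif, Srsf11 showed adjoining matches to the SP1 box and the ETS motif, Srsf7 showed SP1 boxes, and Srsf1 showed none of the 6. Over 250 bases before the start, 34 of the 36 members had an entry, all but Hnrnpll and Sf3b2. The CCAAT box was in 16 of these 34 members, 12 of them among the 17 hnRNP genes with an entry, beside 34.0% of 33469 promoters of all genes and 34.9% of 8831 promoters of the genes tested. The SP1 box was in 23 members (30.5% of all promoters and 59.0% of those tested), the ETS motif in 9 (7.27% and 15.5%), the TATA box in 6 (12.9% and 6.08%), the E-box in 4 (5.59% and 8.26%) and the YY1 motif in 1 (1.38% and 2.62%). A match is a description of the letters and not a binding site.

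The values of the table could be turned back into whole numbers of fragments, which gave 36755175 to 49775062 fragments per sample. The lowest count behind a value of a member was 106 fragments (Hnrnph3 in sham replicate 1) and the highest was 8804 (Hnrnpa2b1 in MI/RI replicate 1). Counting error alone was thus at most 9.71% of a value. The mRNAs encoded by mitochondrial DNA took 80.1% to 86.2% of the summed FPKM in sham and 61.8% to 71.5% in MI/RI, and the FPKM of all other genes share what is left. Sham replicate 1 stood nearer to the MI/RI samples than the other sham samples did: on the first principal component, with 66.2% of the variance, it was at -29.9, beside -55.4 and -64.7 for sham replicates 2 and 3 and 38.2 to 72.9 for MI/RI. Of 7 cardiomyocyte markers tested, 6 were higher in MI/RI, and their summed level was 3465 to 11364 FPKM in sham and 23353 to 33681 FPKM in MI/RI. Of 7 neutrophil and monocyte markers tested, 4 were higher and 1 lower in MI/RI, with a summed level of 52.1 to 68.9 FPKM in sham and 79.8 to 146.9 FPKM in MI/RI. Of 7 fibroblast markers tested, 1 (Col1a1) was higher. By limma with adjustment, 0 of 7 endothelial, 0 of 4 smooth muscle, 0 of 3 red blood cell and 0 of 6 pan-leukocyte markers were called, and at an unadjusted p under 0.05 the counts were 2, 0, 1 and 2. With mitochondrial mRNAs left out of the scaling, 5 cardiomyocyte markers were higher and 0 lower, and 2 neutrophil and monocyte markers were higher and 1 lower. In that scaling 2 fibroblast, 4 endothelial, 0 smooth muscle, 2 red blood cell and 3 pan-leukocyte markers were lower, and 0 of these were higher. Over all genes it called 7.25% higher and 26.1% lower. Among all these markers, Hbb-bs alone was listed at 0 in every sample. The part of the mitochondrial mRNAs, of the cell types and of sham replicate 1 in the results on splicing factors was not tested beyond the values given beside them.

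The SR members lay lower than the hnRNP and SF3 members, whose medians were close to each other, and no test of a difference between families was run. Expression was compared as log2(FPKM + 0.1) with limma over all 10942 genes (Benjamini-Hochberg adjustment, threshold 0.05), and a log2 fold change below is MI/RI minus sham on this scale. Of the 36 members, 9 were called higher in MI/RI, 6 hnRNP and 3 SF3 genes, beside 25.5% of all genes tested. Only 2 members were called lower, both SR genes (Srsf7 and Srsf11), beside 7.36% of all genes. At the minimum of 0.5 FPKM, these shares of the members were close to the background. Of the 9 called higher, Hnrnpab alone kept its call after quantile normalization and when mitochondrial mRNAs were left out of the scaling. The median log2 fold change was -0.50 over the SR members, 0.38 over the hnRNP members and 0.47 over the SF3 members, where that of all genes was 0.29. All 9 SR members lay below the median of all genes, while 14 of 18 hnRNP and 7 of 9 SF3 members lay above it. Among genes with a mean of at least 5 FPKM, the median of all genes was 0.66, and then 0 of 7 SR, 6 of 15 hnRNP and 3 of 5 SF3 members lay above it. Of these 27 members, limma called 9 higher, beside 50.0% of the 3784 genes at that level. It called 3 lower (Srsf6, Srsf7 and Srsf11), beside 4.39%. In bulk tissue, fewer cells of a type and less RNA per cell cannot be told apart.

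**Figure D1:**
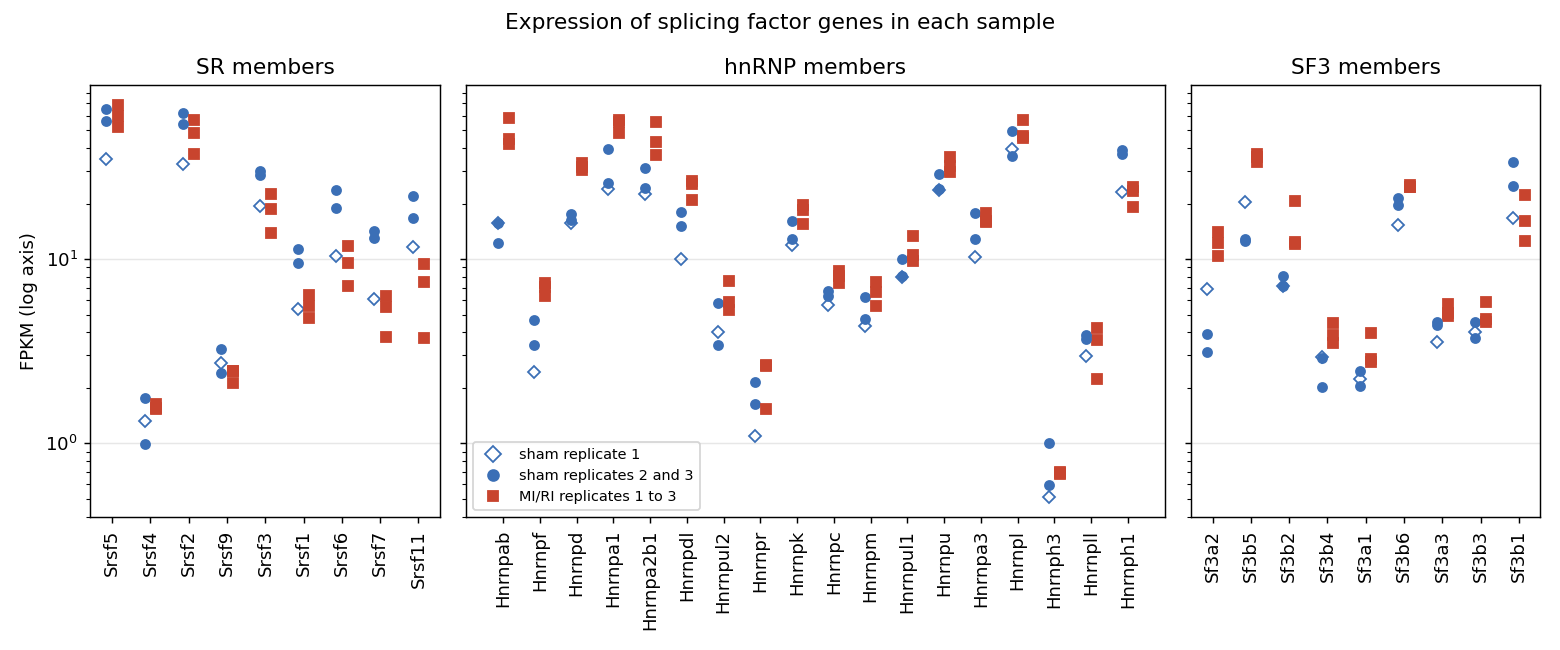
FPKM (log axis) of the 36 members in each sample, by family and in order of log2 fold change from the highest to the lowest. Open diamonds are sham replicate 1, filled circles sham replicates 2 and 3, and squares the 3 MI/RI samples. The MI/RI squares lie above every sham point for 8 hnRNP and 8 SF3 genes and below every sham point for Srsf11.

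The values of the groups did not overlap for 16 members that were higher in MI/RI, 8 hnRNP and 8 SF3 genes, beside 37.2% of all genes, and for 1 member that was lower, Srsf11, beside 13.0% of all genes. The labels state no pairing. Same-numbered samples deviated together only weakly (correlations of 0.20, 0.12 and 0.12), and reading the replicate numbers as pairs is an assumption. Within all 3 pairs, 7 members were lower in MI/RI (Srsf1, Srsf3, Srsf6, Srsf7, Srsf11, Hnrnph1 and Sf3b1), beside 18.5% of all genes, and 20 were higher, beside 44.6% of all genes.

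Hnrnpab (ENSRNOG00000003645), an hnRNP that binds A/T-rich DNA and RNA, showed the largest increase of the 36 members. The 3 sham samples, in the order of their replicate numbers, held 15.7, 15.7 and 12.2 FPKM, and the 3 MI/RI samples held 58.3, 44.9 and 42.0 FPKM. Values below keep this order. Every MI/RI sample was far above every sham sample. The mean was 14.5 ± 1.99 FPKM (SD, n = 3) in sham and 48.4 ± 8.71 FPKM (SD, n = 3) in MI/RI, 3.33-fold higher (log2 fold change 1.72, standard error 0.24, limma adjusted p = 0.0026). A larger log2 fold change was found in 5.95% of all genes tested. The call held without each sample in turn and under every scaling tried.

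Hnrnpd (AUF1, ENSRNOG00000002292), which binds AU-rich elements and controls the decay of short-lived mRNAs, had tight values within the groups. Its expression was 15.8, 17.6 and 16.2 FPKM in sham and 30.4, 31.5 and 33.2 FPKM in MI/RI, a mean of 16.5 ± 0.955 against 31.7 ± 1.39 FPKM (SD, n = 3 each). Its log2 fold change was 0.94 (standard error 0.21, limma adjusted p = 0.0093), and the call held without each sample in turn. Quantile normalization ended it (0.085 on the log2 scale, adjusted p = 0.78), and it was also lost without the mitochondrial mRNAs in the scaling (0.16, adjusted p = 0.66) and with the length trend removed (0.45, adjusted p = 0.083). Its relative Hnrnpdl (ENSRNOG00000002270), which is close to Hnrnpd in sequence, was at 10.1, 18.1 and 15.1 FPKM in sham and 20.8, 26.6 and 25.5 FPKM in MI/RI. The groups did not overlap, but sham replicate 1 was the lowest sample, and the log2 fold change of 0.78 (standard error 0.27, limma adjusted p = 0.047) was at the threshold. It stayed past the threshold without sham replicate 2 (adjusted p = 0.0496) and missed it without each of the other 5 samples in turn (adjusted p of 0.051 to 0.13).

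Hnrnpf (ENSRNOG00000014562), which binds runs of G and often promotes inclusion of neighbouring exons, was at 2.44, 4.68 and 3.42 FPKM in sham and 7.08, 7.38 and 6.33 FPKM in MI/RI. All MI/RI samples were higher. The mean was 1.97-fold higher (standard error of the log2 fold change 0.26, limma adjusted p = 0.018), with adjusted p of 0.055 without sham replicate 3 and 0.051 without MI/RI replicate 2. The log2 fold change of Hnrnpf was 0.62 after quantile normalization (adjusted p = 0.078) and 0.23 without the mitochondrial mRNAs in the scaling (adjusted p = 0.60). The length that the table's FPKM imply for this gene is 12689 bases, the second largest of the members. Its close relative Hnrnph1 (ENSRNOG00000003399), which also binds runs of G, went the other way in its mean, with 23.0, 38.9 and 37.3 FPKM in sham and 19.2, 24.5 and 23.5 FPKM in MI/RI. Sham replicate 1 lay among the MI/RI samples, and the difference did not pass the test (log2 fold change -0.53, standard error 0.27, limma adjusted p = 0.15), but did without that sample (-0.77, adjusted p = 0.030). Leaving out any other single sample gave Hnrnph1 a limma adjusted p of 0.21 to 0.36.

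Hnrnpa1 (ENSRNOG00000036839), which silences exons and shifts the choice between splice sites, was at 23.9, 39.5 and 25.8 FPKM in sham and 48.4, 56.7 and 55.2 FPKM in MI/RI. The log2 fold change was 0.88 (standard error 0.26, limma adjusted p = 0.026), and the groups did not overlap. The adjusted p was 0.053 without sham replicate 1, 0.096 without sham replicate 3, 0.083 without MI/RI replicate 2 and 0.073 without MI/RI replicate 3. Hnrnpa2b1 (ENSRNOG00000011175), a related protein that also carries mRNA to its place in the cytoplasm, was at 22.4, 31.2 and 24.2 FPKM in sham and 55.7, 43.3 and 36.5 FPKM in MI/RI. All MI/RI samples were above all sham samples, by a log2 fold change of 0.79 (standard error 0.25, limma adjusted p = 0.036). When 1 sample was left out, the call stayed without MI/RI replicate 3 (adjusted p = 0.043), and without each of the other samples the adjusted p was 0.052 to 0.11. Quantile normalization turned the log2 fold changes of Hnrnpa1 (-0.09), Hnrnpa2b1 (-0.15) and Hnrnpdl (-0.03) slightly below 0, and without the mitochondrial mRNAs in the scaling they were 0.09, 0.01 and 0.003.

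The other 12 hnRNP genes did not pass the test, with log2 fold changes of -0.53 to 0.51 and limma adjusted p of 0.15 to 0.95. Hnrnpl, which binds CA repeats, had the highest mean FPKM of the hnRNP family in sham (41.7 FPKM), while in MI/RI its mean of 49.6 FPKM was below that of Hnrnpa1 (53.4 FPKM), and the groups of Hnrnpl overlapped (log2 fold change 0.26). Hnrnpu, a scaffold protein of the nucleus needed for splicing in the heart, had a log2 fold change of 0.34, and Hnrnpc, which binds runs of U, of 0.37, and for both genes the groups did not overlap. Hnrnpk, which binds runs of C, had 0.39, Hnrnpul2 0.51, Hnrnpr 0.46, Hnrnpm 0.36, Hnrnpul1 0.36 and Hnrnpa3 0.32. Hnrnph3 (0.03) and Hnrnpll (-0.11), known from the splicing of Cd45 in lymphocytes, were nearest to 0. No hnRNP gene was called lower by limma, also at an unadjusted p under 0.05 (0 of 18).

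**Figure D2:**
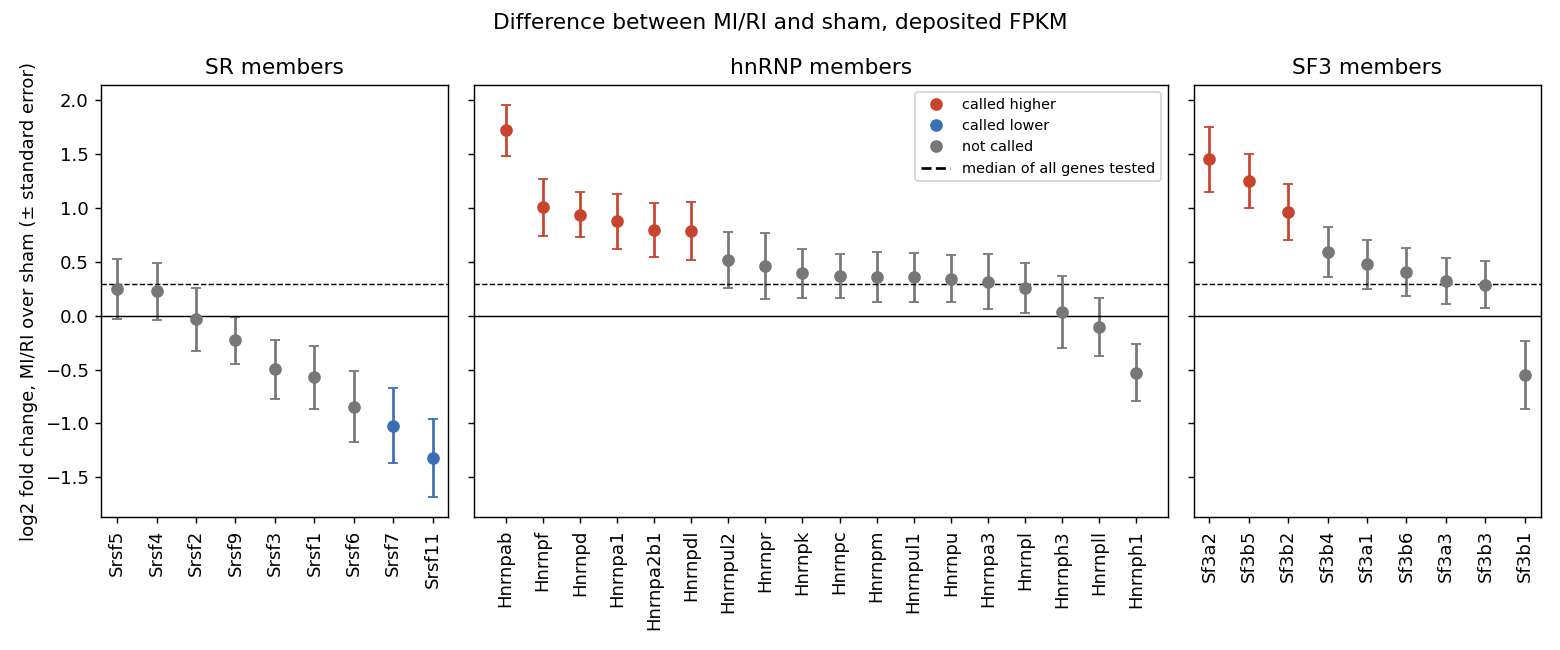
Log2 fold change of the deposited FPKM (MI/RI over sham, with the standard error from limma) for the 36 members, by family. Colours mark the 9 members called higher and the 2 called lower, and the dashed line is the median of all genes tested, 0.29. All 9 SR points lie below that line.

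Within SF3, 3 genes rose and Sf3b1 had the only negative value. Sf3a2 (ENSRNOG00000019349), a subunit of SF3A that joins the complex to the U2 particle, was at 6.87, 3.93 and 3.11 FPKM in sham and 14.04, 10.4 and 12.3 FPKM in MI/RI, a mean of 4.64 ± 1.98 against 12.2 ± 1.83 FPKM (SD, n = 3 each). Sham replicate 1 was the highest of its group but below all MI/RI samples. The log2 fold change was 1.45 (standard error 0.30, limma adjusted p = 0.0077). Sf3b5 (ENSRNOG00000014908), the smallest subunit of SF3B, was at 20.5, 12.8 and 12.5 FPKM in sham and 37.3, 33.5 and 35.7 FPKM in MI/RI, with a log2 fold change of 1.25 (standard error 0.25, limma adjusted p = 0.0070). Both calls held without each sample in turn. Both were lost after quantile normalization (Sf3a2 0.95, adjusted p = 0.053, and Sf3b5 0.45, adjusted p = 0.15) and without the mitochondrial mRNAs in the scaling (0.68, adjusted p = 0.064, and 0.47, adjusted p = 0.14). Sf3b2 (ENSRNOG00000020412), which binds the pre-mRNA near the branch point together with Sf3b4, was at 7.17, 8.06 and 7.15 FPKM in sham and 20.7, 12.1 and 12.4 FPKM in MI/RI, with MI/RI replicate 1 well above the other samples. Its log2 fold change of 0.96 (standard error 0.26, limma adjusted p = 0.020) had an adjusted p of 0.053 without sham replicate 2 and 0.066 without sham replicate 3, and its log2 fold change was 0.33 after quantile normalization (adjusted p = 0.21) and 0.18 without the mitochondrial mRNAs (adjusted p = 0.62).

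Sf3b1 (ENSRNOG00000013516), the large subunit that closes around the branch point, showed no increase. Its expression was 16.8, 33.7 and 25.04 FPKM in sham and 12.6, 22.2 and 16.0 FPKM in MI/RI. The groups overlapped, since sham replicate 1 was low, and the difference did not pass the test (log2 fold change -0.55, standard error 0.31, limma adjusted p = 0.20). Within each of the 3 pairs of same-numbered samples the MI/RI sample was lower, and with the replicate number as a block the adjusted p was 0.056. Sf3b4 (log2 fold change 0.59), Sf3a1 (0.47), Sf3b6 (0.40), whose protein touches the branch point adenosine, Sf3a3 (0.33) and Sf3b3 (0.29) were higher in every MI/RI sample than in every sham sample but did not pass the test (limma adjusted p of 0.078 to 0.33). By limma, 0 of 9 SF3 genes were called lower, with 0 at an unadjusted p under 0.05.

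Srsf11 (ENSRNOG00000029592), an SR protein that interacts with factors of 3′ splice site recognition, showed the largest decrease of the members. Its expression was 11.6, 22.1 and 16.6 FPKM in sham and 3.74, 9.41 and 7.49 FPKM in MI/RI. All MI/RI samples were below all sham samples, with MI/RI replicate 1 the lowest. The mean was 16.8 ± 5.25 FPKM in sham and 6.88 ± 2.89 FPKM in MI/RI (SD, n = 3 each), 2.44-fold lower in MI/RI (log2 fold change -1.32, standard error 0.36, limma adjusted p = 0.021), and 3.29% of all genes tested had a lower log2 fold change. The call held under every scaling tried. It was lost without sham replicate 2 (adjusted p = 0.089), sham replicate 3 (0.060) or MI/RI replicate 1 (0.052).

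Srsf7 (ENSRNOG00000027360), which also takes part in the export and the 3′ end choice of mRNA, was at 6.04, 13.01 and 14.2 FPKM in sham and 3.76, 6.31 and 5.48 FPKM in MI/RI. Sham replicate 1 lay below MI/RI replicate 2, so that the groups overlapped. This gave a log2 fold change of -1.02 (standard error 0.35, limma adjusted p = 0.047). It was -1.41 without sham replicate 1 (adjusted p = 0.0073), and without each of the other 5 samples in turn the call was lost (adjusted p of 0.051 to 0.16). Rescaling to TPM also ended the call (adjusted p = 0.081).

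Srsf6 (ENSRNOG00000006380), a regulator of exon inclusion, was at 10.4, 23.7 and 19.0 FPKM in sham and 7.16, 11.8 and 9.51 FPKM in MI/RI. Again only sham replicate 1 reached the MI/RI range. The log2 fold change was -0.85 (standard error 0.33, limma adjusted p = 0.073), and with the replicate number as a block the adjusted p was 0.012. Srsf1 (ENSRNOG00000050323), the SR protein whose loss in the mouse heart disturbs calcium handling, was at 5.36, 11.3 and 9.47 FPKM in sham and 4.80, 6.42 and 5.58 FPKM in MI/RI (log2 fold change -0.57, standard error 0.30, limma adjusted p = 0.16). Without sham replicate 1, Srsf6 (log2 fold change -1.18, adjusted p = 0.014) and Srsf1 (-0.88, adjusted p = 0.025) were past the threshold. Neither was without any other single sample, with limma adjusted p of 0.070 to 0.23 for Srsf6 and 0.18 to 0.41 for Srsf1.

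The remaining 5 SR genes did not pass the test. Srsf3, the smallest SR protein, had a log2 fold change of -0.50, Srsf9 of -0.23 and Srsf2 (SC35) of -0.03. Srsf5 and Srsf4, which are alike in domain structure, had 0.25 and 0.23. No SR gene was called higher by limma, with 0 of 9 at an unadjusted p under 0.05. Without sham replicate 1, limma called 6 members higher (beside 23.4% of all genes) and 5 lower (beside 8.05%), the latter being Srsf1, Srsf6, Srsf7, Srsf11 and Hnrnph1.

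Because sham replicate 1 was low in most SR genes at once, their levels were also set against each other within each sample, where the scaling between samples plays no part. The summed FPKM of the 9 SR genes was 124.6, 230.3 and 203.0 in sham and 126.3, 186.2 and 158.9 in MI/RI, and these overlapped. The share of Srsf5 in this sum was 28.0%, 28.2% and 27.6% in sham and 41.1%, 37.0% and 37.6% in MI/RI. That of Srsf11 was 9.30%, 9.59% and 8.20% in sham and 2.96%, 5.05% and 4.72% in MI/RI. Sham replicate 1 was like the other sham samples in the shares of Srsf5 and Srsf11, although its levels were lower. It stood apart in some other shares. That of Srsf9 was 2.19% in sham replicate 1 and 1.40% and 1.18% in sham replicates 2 and 3. For Srsf7 these values were 4.85%, 5.65% and 7.02%.

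The share of Srsf2 was also higher in every MI/RI sample (26.6% ± 0.205 in sham and 30.2% ± 0.481 in MI/RI, SD, n = 3 each). Lower in every MI/RI sample were the shares of Srsf6 (9.35% ± 0.958 and 5.99% ± 0.319), Srsf7 (5.84% ± 1.10 and 3.27% ± 0.256), Srsf3 (14.2% ± 1.63 and 11.6% ± 0.593) and Srsf1 (4.63% ± 0.306 and 3.59% ± 0.190). Those of Srsf4 and Srsf9 overlapped. The two-sided exact permutation test gave p = 0.1 for each of these 7 shares, the smallest that 3 samples against 3 allow, and 0.15 after adjustment over the 40 shares and ratios computed. Shares of a whole are bound to each other, since 1 share can rise only when others fall.

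**Figure D3:**
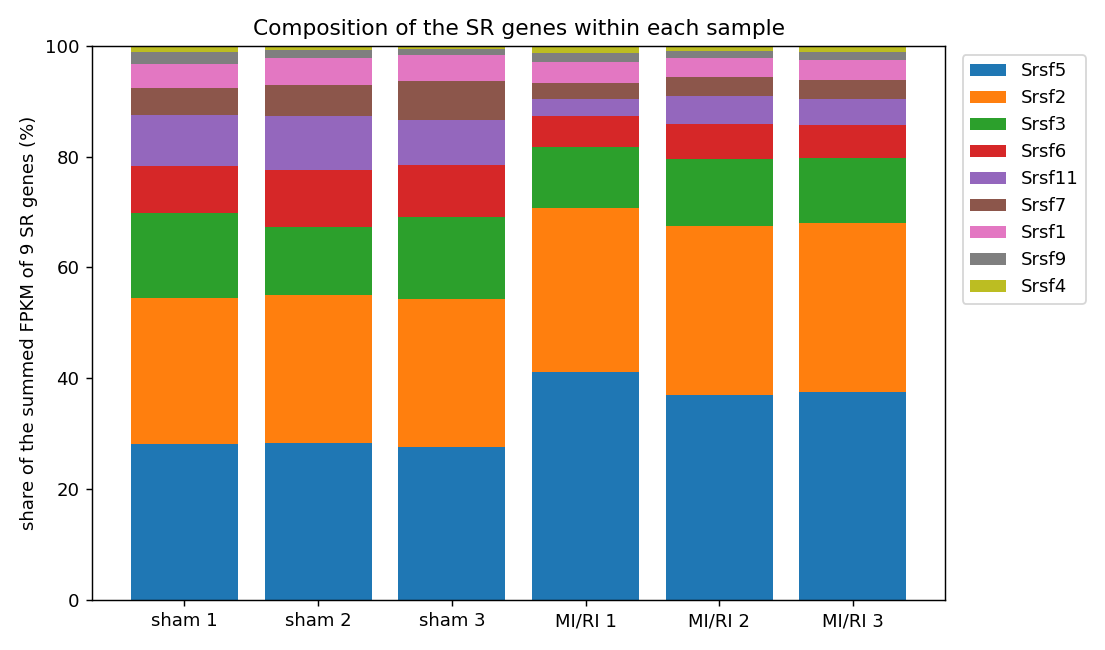
Share of each SR gene in the summed FPKM of the 9 SR genes (percent), with 1 bar per sample. Srsf5 takes 27.6% to 28.2% in the sham samples and 37.0% to 41.1% in the MI/RI samples, and the segments of Srsf6, Srsf11 and Srsf7 are narrower in MI/RI.

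In the hnRNP family, the same calculation gave Hnrnpab 6.97%, 5.002% and 4.92% of the summed FPKM in sham and 14.6%, 11.3% and 11.5% in MI/RI. For Hnrnph1 the shares were 10.2%, 12.4% and 15.0% in sham and 4.81%, 6.16% and 6.44% in MI/RI. The shares of Hnrnpd, Hnrnpa2b1 and Hnrnpf were also higher in every MI/RI sample, and those of Hnrnpl, Hnrnpu, Hnrnpk, Hnrnpa3, Hnrnpm, Hnrnpll and Hnrnph3 were also lower in every MI/RI sample. Of the SF3 sum, Sf3b1 made up 21.1%, 36.3% and 30.7% in sham and 9.84%, 18.4% and 13.7% in MI/RI, while the shares of Sf3b5 and Sf3b2 were higher in every MI/RI sample. That of Sf3a2 overlapped, because it was high in sham replicate 1. Each share without overlap had the exact permutation p of 0.1.

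Pairs of genes were then compared as ratios of FPKM within a sample, and the pairs were chosen after their values were seen. Hnrnpa1 over Srsf1 was 4.46, 3.49 and 2.72 in sham and 10.1, 8.83 and 9.90 in MI/RI. Hnrnpab over Srsf11, the members with the largest changes, was 1.36, 0.710 and 0.736 in sham and 15.6, 4.77 and 5.60 in MI/RI. Sf3b5 over Sf3b1 was 1.22, 0.381 and 0.499 in sham and 2.96, 1.51 and 2.22 in MI/RI. Sf3a2 over Sf3b1 was 0.409, 0.117 and 0.124 in sham and 1.11, 0.469 and 0.766 in MI/RI. Each of these ratios was higher in every MI/RI sample than in every sham sample. For Hnrnpab over Srsf11 this was bound to be so, since neither gene overlapped between the groups. The summed FPKM of the hnRNP genes over that of the SR genes was 1.81, 1.36 and 1.23 in sham and 3.17, 2.14 and 2.30 in MI/RI, given as a description.

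**Figure D4:**
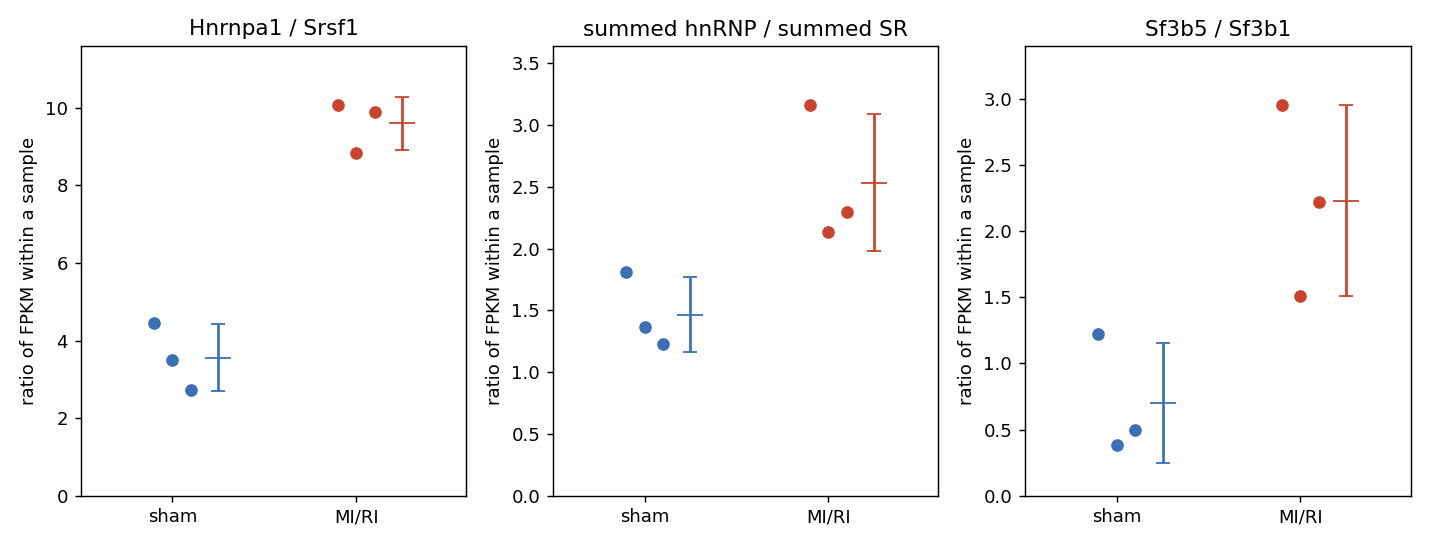
Ratios of FPKM within a sample for Hnrnpa1 over Srsf1, the summed hnRNP over the summed SR genes, and Sf3b5 over Sf3b1, each axis from 0. Points are samples, and the bars beside them are the mean ± SD (n = 3). The MI/RI points lie above the sham points in each panel, with Hnrnpa1 over Srsf1 at 8.83 to 10.1 against 2.72 to 4.46.

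The direction of many members depended on how the samples were scaled. All genes tested had a median log2 fold change of 0.29 in the deposited FPKM, 0.48 after rescaling to TPM, 0.04 after centring, -0.02 after quantile normalization and -0.46 when mitochondrial mRNAs were left out of the total. In the deposited FPKM, 2790 genes were higher and 805 lower, and in the last scaling 793 were higher and 2857 lower. After centring, 6 members were called higher (beside 18.5% of all genes) and 3 lower (beside 14.2%), which were Srsf6, Srsf7 and Srsf11. After leaving the mitochondrial mRNAs out of the scaling, only Hnrnpab was called higher (beside 7.25%), while 8 members were called lower (beside 26.1%): Srsf1, Srsf3, Srsf6, Srsf7, Srsf9, Srsf11, Hnrnph1 and Sf3b1. Hnrnpab (log2 fold change of 0.87 to 1.92) and Srsf11 (-2.10 to -1.13) were called in the same direction under each of the 5 scalings. Members with a log2 fold change above 0 under each scaling were Hnrnpab, Hnrnpd, Hnrnpf, Sf3a2, Sf3b5 and Sf3b2. Below 0 under each scaling were Srsf1, Srsf3, Srsf6, Srsf7, Srsf9, Srsf11, Hnrnph1 and Sf3b1, and the other 22 members changed sign.

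**Figure D5:**
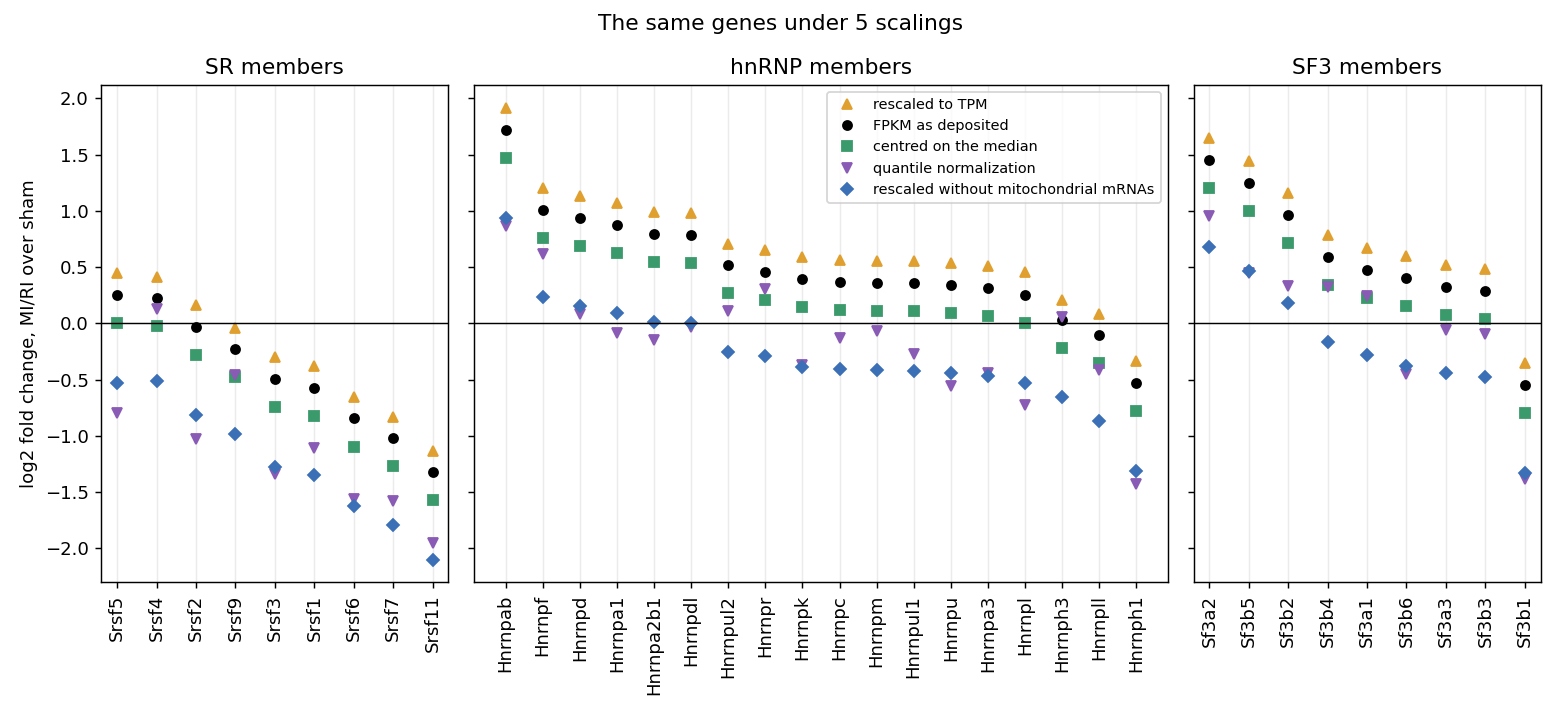
Log2 fold change (MI/RI over sham) of the 36 members under the 5 scalings of the samples, shown by the shape and colour of the points. The scalings move most members up or down together: Hnrnpab stays between 0.87 and 1.92 and Srsf11 between -2.10 and -1.13.

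The other genes of the splicing machinery were read from lists chosen with earlier results of these data known. Over all genes tested, 25.5% were called higher and 7.36% lower, and these shares stand beside the counts of each list in the deposited FPKM. Of 15 tested proteins of the U1 and U2 particles and of 3′ splice site recognition, 5 were higher and 1 was lower in MI/RI (median log2 fold change 0.29). Snrpa, which binds the U1 RNA, had a log2 fold change of 1.71 (1.52 ± 0.127 FPKM in sham and 5.19 ± 0.431 FPKM in MI/RI, SD, n = 3 each, limma adjusted p = 0.0016). Snrpc of the U1 particle had 1.46, U2surp of the U2 particle -0.86 and the helicase Dhx15 -0.66, of which Dhx15 did not pass the test. Of 15 Sm and LSm proteins, which form the rings of the particles, 7 were higher and 0 lower by limma (0 lower also at an unadjusted p under 0.05, median 0.60). Snrpn had a log2 fold change of 2.12 and Snrpb of 1.23, while Snrpe (-0.41) and Lsm8 (-0.50) did not pass the test. Of 21 genes listed for the tri-snRNP and the Prp19 complex, 6 were higher and 1 was lower (median 0.56). Bcas2 was at 1.07 and Prpf19 at 1.03, and Prpf38b (-0.59) was not past the threshold. The 1 called lower was Prpf39 (-1.89), a factor of the U1 particle that was placed in this list. After rescaling without the mitochondrial mRNAs, the medians of these 3 lists were -0.48, -0.16 and -0.22. In that scaling limma called 2, 1 and 0 of their genes higher, beside 7.25% of all genes. It called 3, 2 and 4 lower, beside 26.1%. Of the genes named above as higher, Snrpb (0.45, adjusted p = 0.17), Bcas2 (0.29, adjusted p = 0.39) and Prpf19 (0.25, adjusted p = 0.47) lost the call there. Snrpa, Snrpc and Snrpn kept it.

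The SR protein kinases and importers held the largest falls among these lists. Clk1, a nuclear kinase that phosphorylates SR proteins, was at 57.0, 141.7 and 141.2 FPKM in sham and 10.5, 25.7 and 17.4 FPKM in MI/RI. Its relative Clk4 was at 15.03, 20.02 and 22.2 FPKM in sham and 2.08, 7.07 and 4.52 FPKM in MI/RI. All MI/RI samples were far below all sham samples for both. The log2 fold changes were -2.63 for Clk1 (standard error 0.42, limma adjusted p = 0.0035) and -2.19 for Clk4 (standard error 0.39, limma adjusted p = 0.0048), and both calls held without each sample in turn. They were the only genes called among the 11 tested, beside 7.36% of all genes lower and 25.5% higher. The list had a median log2 fold change of -0.03 (0 higher by limma, and 0 higher at an unadjusted p under 0.05). Clk2 (0.30) and the kinase Dyrk1a (0.43) had the largest positive values and did not pass the test. Without the mitochondrial mRNAs in the scaling, 5 of the 11 were called lower, beside 26.1% of all genes, with a median of -0.80. The CLK genes are known for transcripts that keep introns in the nucleus, which a value per gene does not separate.

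Of 19 tested SR-related proteins, which carry stretches of arginine and serine without being classical SR proteins, 7 were lower and 1 was higher in MI/RI, beside 7.36% of all genes lower and 25.5% higher, with a median log2 fold change of -0.61. Without the mitochondrial mRNAs in the scaling, 15 of the 19 were lower and 0 higher by limma (median -1.37), beside 26.1% and 7.25% of all genes. Tra2a, a partner of SR proteins at exon enhancers, was at 8.21, 15.5 and 12.4 FPKM in sham and 2.30, 4.71 and 3.49 FPKM in MI/RI (log2 fold change -1.76, standard error 0.32, limma adjusted p = 0.0050). Luc7l, a protein of the U1 particle, had a log2 fold change of -1.57. Luc7l2, Luc7l3, Rbm39, Srrm1 and Arglu1 were also called lower. Rnps1, a protein of the exon junction complex, was higher (0.84), and Rsrc1 (0.47) did not pass the test. For Clk1, Clk4 and Tra2a too, sham replicate 1 was the sham sample nearest to MI/RI.

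Gene length was looked at because the table implies it. Across 10077 genes of a single row, log2 fold change and implied length had a Spearman correlation of -0.21, given as a description over genes that share the same 6 libraries. With these genes split by length into 5 equal bins, the median log2 fold change went from 0.59 in the shortest to 0.07 in the longest. Over the 36 members the correlation was -0.18, and over the 9 SF3 members, of which Sf3b6 and Sf3b5 imply 839 and 1075 bases and Sf3b1 implies 4969 bases, it was -0.47. With the length trend removed, 6 members were called higher (beside 16.5% of all genes) and 4 lower (beside 15.2%), the latter being Srsf6, Srsf7, Srsf11 and Hnrnph1. Hnrnpab (log2 fold change 1.31), Sf3a2 (0.97), Sf3b5 (0.64) and Srsf11 (-1.65) stayed past the threshold under this correction.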

How the data were processed

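RNA-seq of myocardium from 3 sham and 3 MI/RI samples was analysed from 1 table with a column per sample. The FPKM values were deposited by the authors, divided by gene length and library size. The submitters' processing notes name STAR and HTSeq with no version or role, and the genome build and annotation are not given in the sources used here. The libraries were made from total RNA with a stranded kit.

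Columns were matched to samples by name. The values of rows with the same symbol were added up (30452 rows, 28293 genes). A minimum mean of 0.5 FPKM left 10942 genes, tested as log2(FPKM + 0.1) with limma 3.58.1 (lmFit, eBayes with an intensity trend) in R 4.3.3, with Benjamini-Hochberg adjustment over all of them and a threshold of 0.05. Fold changes on this scale understate the change of low genes. Shares and ratios were computed within each sample and compared by two-sided exact permutation tests (SciPy 1.17.1), whose smallest p is 0.1. The fit was tested on simulated data: of 200 genes among 10942 moved by 1.5 on the log2 scale, 106 were called in the right direction, and 4 of 110 calls were false. The simulated noise was independent between genes, and equally many genes were moved up and down. It held no shift of most genes and no sample that deviates in many genes at once. The share of false calls in the real data can thus not be read from it.

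Whole fragments were recovered from the steps between samples for 100% of the 17863 rows above 0 in 2 or more samples (tolerance 0.005 fragments), which gave the depth and an implied gene length. At the lowest count of a member, 106 fragments, counting error alone is 9.71% of the value, and standard errors from limma include it.

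The reported fit has no block. Numbers of replicates are those in the labels' titles. Deviations from the group means of same-numbered samples correlated at 0.20, 0.12 and 0.12, all over 0.1. On that basis the numbers were taken to pair the samples, and the fit was repeated with a term for the replicate block. The labels state no pairing, and correlations between samples of different numbers are not given here, so that the pairing remains an assumption.

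All members are named, and of each other splicing list the genes with the 2 largest and 2 smallest log2 fold changes are given. Members, lists and motifs were chosen with earlier results of these data known. Genes that share sequence with paralogs or pseudogenes, as in the hnRNP A and Sm families, are uncertain, since the counting settings are not stated. Alternative settings were pseudocounts of 1 and 0.01, no filter, a mean of at least 5 FPKM, 4 other scalings, no trend, the highest row of a symbol, the block, and each sample left out in turn. A test of the recovered fragments with voom in limma and a fit with the length trend removed were added after seeing the data. Promoters were matched by symbol to the RefSeq table.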

Additional observations from a re-analysis of the deposited data

How the results depend on the processing

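Other pseudocounts, the highest row of each symbol and voom on the recovered fragments left all 36 members on the same side of 0 and of the threshold, and the replicate block changed no call among the members but that of Srsf6. Without a filter, 19226 genes were tested, and then 7 members were called higher and 0 lower by limma (3 lower at an unadjusted p under 0.05), beside 11.4% and 3.32% of all genes, more genes entering the adjustment. With a mean of at least 5 FPKM, 166 genes were lower, and the median of the SF3 members was 0.96, since 5 of the 9 were left. Without the trend, 1 member was lower. After rescaling to TPM, 504 genes and 1 member were lower, and the log2 fold changes that turned sign were Srsf2 0.16 and Hnrnpll 0.085. After centring, 1554 genes were lower, the median of the hnRNP members was 0.13, and the values that turned sign were Srsf4 -0.024 and Hnrnph3 -0.22.

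Quantile normalization called 1441 genes higher and 1559 lower, with 1 member higher and 7 lower. The median was -1.10 over the SR members and -0.11 over the hnRNP members. Values that turned sign were Hnrnpdl -0.032, Srsf5 -0.80, Sf3a3 -0.060, Hnrnpm -0.070, Hnrnpa2b1 -0.15, Hnrnpc -0.13, Sf3b3 -0.090, Hnrnpk -0.37, Hnrnpl -0.73, Hnrnpul1 -0.27, Hnrnpu -0.56, Hnrnpa1 -0.086, Sf3b6 -0.45, Hnrnpa3 -0.44 and Clk2 -0.12. Leaving the mitochondrial mRNAs out of the scaling called 793 genes higher and 2857 lower, with 1 member higher and 8 lower, and the medians were -1.28 for SR, -0.40 for hnRNP and -0.28 for SF3 members. There the values that turned sign were Sf3a1 -0.28, Srsf5 -0.53, Sf3a3 -0.44, Hnrnpm -0.41, Srsf4 -0.51, Hnrnpc -0.41, Hnrnpr -0.29, Sf3b3 -0.48, Hnrnpk -0.39, Hnrnpul2 -0.26, Hnrnpl -0.53, Hnrnpul1 -0.42, Sf3b4 -0.17, Hnrnpu -0.44, Sf3b6 -0.38, Hnrnph3 -0.66, Hnrnpa3 -0.46, Clk2 -0.47, Dyrk1a -0.34 and Rsrc1 -0.27. With the length trend removed, which was added once the data had been seen, limma called 1806 genes higher and 1658 lower, 4 members were lower, and the values that turned sign were Srsf5 -0.29, Sf3a3 -0.084, Hnrnpl -0.14, Sf3b6 -0.24 and Hnrnph3 -0.11. Why the values turn was not tested.

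Leaving out each sample gave 1528 to 2557 genes called higher, 309 to 881 called lower, and 4 to 7 members were higher and 0 to 5 lower. The log2 fold change was -0.30 to 0.15 for Srsf2, -0.012 to 0.43 for Srsf5, -0.29 to 0.15 for Hnrnpll and -0.14 to 0.29 for Hnrnph3. Of the 11 called members, 4 (Hnrnpab, Hnrnpd, Sf3a2 and Sf3b5) stayed past the threshold each time. The number of SR shares without overlap was 7 to 8. It could not fall below the 7 of all samples, since leaving out a sample creates no overlap. Depth limits most the members with the fewest fragments, Hnrnph3 and Hnrnpr.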

Other observations

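Regulators of tissue-specific splicing were read from a further list chosen with earlier results known. Of 21 tested, 4 were higher in MI/RI, among them Rbpms, Rbm20 and Raly, and 2 were lower (Ptbp2 and Tia1) by limma. Over all genes, 25.5% were called higher and 7.36% lower. The list had a median log2 fold change of 0.42 in the deposited FPKM and -0.34 with mitochondrial mRNAs left out of the scaling. In the latter scaling limma called 0 higher and 3 lower, beside 7.25% and 26.1% of all genes. Raly, a relative of Hnrnpc, had a log2 fold change of 1.34 in the deposited FPKM. Ptbp2, a repressor of exons best known from neurons, was at 3.65, 6.79 and 8.30 FPKM in sham and 0.652, 2.43 and 1.61 FPKM in MI/RI, and its log2 fold change was -2.02 (standard error 0.44, limma adjusted p = 0.0092). Tia1, which binds U-rich RNA beside weak 5′ splice sites, had -1.61. Esrp1, an epithelial regulator, was listed at 0 in every sample.

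Of 14 tested factors of the exon junction complex and of nonsense-mediated decay, 2 were higher and 1 was lower in MI/RI. Over all genes, 25.5% were called higher and 7.36% lower. The higher ones were Eif4a3 (14.2 ± 0.965 FPKM in sham and 25.1 ± 1.155 FPKM in MI/RI, SD, n = 3 each, log2 fold change 0.82) and Rbm8a (log2 fold change 0.99), both of the core of the junction complex. Upf3b, which links that complex to decay, was lower (-0.89), and Smg1, the kinase that starts decay, had -0.90 without passing the test (limma adjusted p = 0.093). The median of this list was 0.19 in the deposited FPKM and -0.58 with mitochondrial mRNAs left out of the scaling. Under the latter limma called 0 higher and 3 lower, beside 7.25% and 26.1% of all genes. Eif4a3 (log2 fold change 0.04, adjusted p = 0.91) and Rbm8a (0.21, adjusted p = 0.52) lost their calls there.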
